A study of Homo sapiens with 9 samples.

Results

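The genes described here are 40 genes of the cell cycle and of DNA replication, followed over the differentiation of NCCIT cells and under ethanol. NCCIT, a human embryonal carcinoma line, has features of pluripotent cells. Kept from attaching to a dish, it grows as embryoid bodies, which are suspended clumps of differentiating cells. The members were taken by symbol from the 18417 genes that had a transcript cluster (the probe group that stands for a gene on the array) annotated to that symbol and to no other. All 40 were found, each with 1 cluster. They were sorted by role into 12 genes of the replication origin and helicase, 7 of the replication fork and nucleotide supply, 8 cyclins and regulators of the G1 and S phases and 13 mitotic genes. CCNA2 was placed with the G1 and S phase genes, although cyclin A also acts before mitosis.

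The study measured expression on 9 arrays, 1 for each condition. Embryoid bodies were kept for 7 or 21 days, in each case with 50 mM ethanol and FA, with ethanol alone, with FA alone or without either (called untreated), and 1 array came from undifferentiated NCCIT cells. FA is given by that abbreviation only, with no dose, and the labels' protocol describes ethanol treatment for 7 days with a daily change of medium and does not mention 21 days. All samples are of 1 cell line, and nothing in the labels says whether the arrays came from separate cultures, so the p-values reflect nothing beyond the variation among these 9 arrays, possibly technical in origin. Values are on a log2 scale, so a difference of 1 is a 2-fold change. An effect is the mean difference between matched arrays in 1 additive model with terms for ethanol, FA, day and the undifferentiated array, its error is the standard error (SE) of that fit, and a gene was called when its limma p, Benjamini-Hochberg adjusted over 12254 genes tested, was under 0.05. Each ethanol, FA or day effect averages 4 pairs of arrays. The level of untreated embryoid bodies at day 7 or day 21 is the level the model gives for that day, set against the 1 undifferentiated array. The variance of that lone array was taken to equal that of the rest.

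DNA replication starts at origins that are marked by the origin recognition complex. The loading factors CDC6 and CDT1 place the MCM helicase there in G1, and the GINS complex and MCM10 help to switch it on in S phase. Cyclin D and cyclin E, with their kinases, drive the passage from G1 into S phase and release E2F factors, which switch on many replication genes. Cyclin B with CDK1 starts mitosis, and the anaphase-promoting complex with CDC20 ends it. Pluripotent and embryonal carcinoma cells are known for a short G1 phase and for strong expression of replication genes.

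Of the 40 members, 38 were above the level used to remove dim genes (7.71, the median of all values) on every array. CDT1 was above it on 7 arrays. CCNE2 was above it on 3 arrays, all of day 21, so it could be tested only because it was high there, and counts are also given without it. Array correlations within a day were 0.991 to 0.993 on average at day 21 and 0.989 to 0.990 at day 7, apart from the day 7 array with ethanol alone at 0.983. Of 17 listed genes of pluripotent and embryonal carcinoma cells, 14 had a cluster of their own and all 14 were above the cutoff in undifferentiated cells. Their mean log2 level was 11.20 in undifferentiated cells, 10.96 to 11.06 on the day 7 arrays and 9.66 to 10.04 on the day 21 arrays. For 11 neuron genes it was 7.79 in undifferentiated cells, 7.59 to 7.72 at day 7 and 8.15 to 8.36 at day 21. For 10 mesenchyme genes it was 6.66, 6.65 to 6.82 and 7.21 to 7.28 at these 3 stages, under the cutoff throughout. For 10 neural progenitor genes it was 8.22, 8.07 to 8.19 and 8.47 to 8.68. For 8 endoderm genes it was 7.48, 7.48 to 7.65 and 7.62 to 7.70. Genes within a list differed. The neuron gene DCX was at 8.37 in undifferentiated cells and 9.94 to 10.27 at day 21, and STMN2 at 8.24 and 7.26 to 7.72. The mesenchyme gene PDGFRA was at 7.07 and 9.18 to 9.62, and COL1A1 at 8.36 and 8.28 to 8.40. None of 9 endothelium and blood genes was above the cutoff in undifferentiated cells. These lists moved over the same arrays as the members, and their part in the members' changes was not tested. In such bulk RNA, fewer dividing cells and less of a transcript per cell cannot be told apart.

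The sequences upstream of the members differed by role in the motifs they held. The 250 bases before the gene start were taken from RefSeq (GRCh38.p14) for the 31 members that matched by symbol, and searched on both strands for the 4 E2F motifs TTTCCCGC, TTTCGCGC, TTTGCCGC and TTTGGCGC, for the cell cycle homology region (CHR) motif TTTGAA, which binds complexes that repress and activate mitotic genes, and for CCAAT, which binds NF-Y. An E2F motif stood in 5 of 10 origin and helicase promoters, 3 of 7 fork and nucleotide promoters, 2 of 4 G1 and S phase promoters and 0 of 10 mitotic promoters, against 2.79% of all 27305 promoters. The CHR motif stood in 0 of 10 origin and helicase promoters, 1 of 7 fork and nucleotide promoters, 0 of 4 G1 and S phase promoters and 7 of 10 mitotic promoters, against 13.6% of all promoters. CCAAT stood in 24 of the 31, against 33% of all. These are letter matches, not shown binding sites. The promoters below are those of the called members with the largest change between the days in each role, among those matched, with MCM6 and CDC20 added after the matches were seen, as examples of the E2F and CHR motifs. Capitals mark the matches, read 5′ to 3′ on the gene's strand.
ORC1, chr1:52404424-52404673, minus strand: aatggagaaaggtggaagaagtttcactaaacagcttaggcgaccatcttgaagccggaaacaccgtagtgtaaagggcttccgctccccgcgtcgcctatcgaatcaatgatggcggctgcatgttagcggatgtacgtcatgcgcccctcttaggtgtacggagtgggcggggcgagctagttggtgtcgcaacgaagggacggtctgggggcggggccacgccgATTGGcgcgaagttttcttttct
CDC6, chr17:40287629-40287878, plus strand: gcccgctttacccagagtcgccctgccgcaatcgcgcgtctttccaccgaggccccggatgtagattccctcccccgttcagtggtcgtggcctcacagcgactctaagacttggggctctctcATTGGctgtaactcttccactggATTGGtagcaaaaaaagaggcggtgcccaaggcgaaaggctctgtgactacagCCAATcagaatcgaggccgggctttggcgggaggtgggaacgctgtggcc
MCM6, chr2:135876444-135876693, minus strand: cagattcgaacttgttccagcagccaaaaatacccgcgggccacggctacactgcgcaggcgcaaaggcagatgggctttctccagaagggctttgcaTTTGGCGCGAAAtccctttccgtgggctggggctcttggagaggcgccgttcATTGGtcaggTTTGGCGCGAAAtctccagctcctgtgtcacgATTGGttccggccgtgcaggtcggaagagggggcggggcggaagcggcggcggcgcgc
RRM1, chr11:4094435-4094684, plus strand: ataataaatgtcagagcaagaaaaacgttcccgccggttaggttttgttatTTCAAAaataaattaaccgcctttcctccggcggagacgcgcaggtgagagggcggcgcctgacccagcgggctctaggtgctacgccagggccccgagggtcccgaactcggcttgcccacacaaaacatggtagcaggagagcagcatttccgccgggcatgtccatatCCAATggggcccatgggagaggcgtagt
RRM2, chr2:10122489-10122738, plus strand: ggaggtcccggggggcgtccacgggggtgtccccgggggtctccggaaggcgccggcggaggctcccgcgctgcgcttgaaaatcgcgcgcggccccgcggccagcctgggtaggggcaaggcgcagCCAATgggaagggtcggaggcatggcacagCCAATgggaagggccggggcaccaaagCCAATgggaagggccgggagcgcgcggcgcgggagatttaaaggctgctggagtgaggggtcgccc
CCNE1, chr19:29811741-29811990, plus strand: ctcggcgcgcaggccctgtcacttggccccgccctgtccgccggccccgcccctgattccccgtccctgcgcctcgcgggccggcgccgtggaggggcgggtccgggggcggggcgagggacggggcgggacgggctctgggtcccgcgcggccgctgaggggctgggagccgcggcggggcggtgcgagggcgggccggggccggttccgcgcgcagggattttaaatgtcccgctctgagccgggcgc
AURKB, chr17:8210226-8210475, minus strand: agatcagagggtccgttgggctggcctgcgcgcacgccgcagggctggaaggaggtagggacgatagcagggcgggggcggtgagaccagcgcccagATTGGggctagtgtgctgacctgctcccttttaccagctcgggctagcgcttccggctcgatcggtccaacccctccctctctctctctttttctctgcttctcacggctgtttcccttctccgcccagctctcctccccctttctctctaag
CDK1, chr10:60778081-60778330, plus strand: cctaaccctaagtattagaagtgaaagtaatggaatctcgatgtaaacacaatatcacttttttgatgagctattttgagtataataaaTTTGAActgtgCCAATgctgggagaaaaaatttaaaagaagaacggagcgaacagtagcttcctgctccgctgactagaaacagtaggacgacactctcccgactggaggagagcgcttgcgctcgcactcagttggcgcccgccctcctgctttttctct
CDC20, chr1:43358731-43358980, plus strand: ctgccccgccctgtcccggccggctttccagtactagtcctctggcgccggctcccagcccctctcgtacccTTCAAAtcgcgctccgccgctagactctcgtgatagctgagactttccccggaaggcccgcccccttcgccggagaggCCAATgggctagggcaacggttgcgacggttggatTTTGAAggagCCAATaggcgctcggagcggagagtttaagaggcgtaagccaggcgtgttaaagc

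In MCM6 the 4 E2F matches form 2 runs in which matches of opposite strands overlap, the first starting 152 bases and the second 90 bases before the gene start. In CDC20 a CHR match starts 65 bases before the start and a CCAAT match 55 bases before it. ORC1, CDC6 and CCNE1 held no E2F match in this window, and CCNE1 held none of the motifs.

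By day 7, 11 of the 12 origin and helicase genes had fallen relative to undifferentiated cells, while 1 of 13 mitotic genes, PLK1, had. Over all 40 members 17 fell and 1 rose, against 13.9% of the 12254 genes tested that fell and 6.68% that rose (20.6% called in all). The members' median was -0.27, and that of all genes -0.05. By role the medians were -0.57 for origin and helicase genes, -0.26 for fork and nucleotide genes, -0.28 for G1 and S phase genes and -0.11 for mitotic genes. The difference between the roles was not tested.

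Among the origin and helicase genes, MCM6, a subunit of the replicative helicase, fell most. Its log2 level was 10.80 in undifferentiated cells, and 10.07, 9.98, 9.99 and 9.99 on the day 7 arrays, here and below in the order ethanol with FA, ethanol, FA and untreated. At day 21 it was 10.16, 10.18, 10.12 and 10.16. All 8 embryoid body arrays lay below the undifferentiated array and close together, and the effect at day 7 was -0.81 ± 0.08, a 1.76-fold decrease (adjusted p = 0.00402). MCM4, another helicase subunit, was at 10.43 in undifferentiated cells, at 9.75, 9.72, 9.74 and 9.73 on the day 7 arrays and at 9.72, 9.77, 9.71 and 9.74 on the day 21 arrays. Its step was complete by day 7 (-0.69 ± 0.08), and it moved by 0.00 ± 0.05 between the days, with an adjusted p of 0.99. MCM2, MCM5, MCM7 and MCM10 fell by 0.60, 0.57, 0.50 and 0.60 on the log2 scale at day 7, and CDT1, GINS1 and GINS2 fell by 0.57, 0.48 and 0.55. MCM3 was the member of this role that was not called at day 7 (-0.27 ± 0.09, adjusted p = 0.0818).

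**Figure D1:**
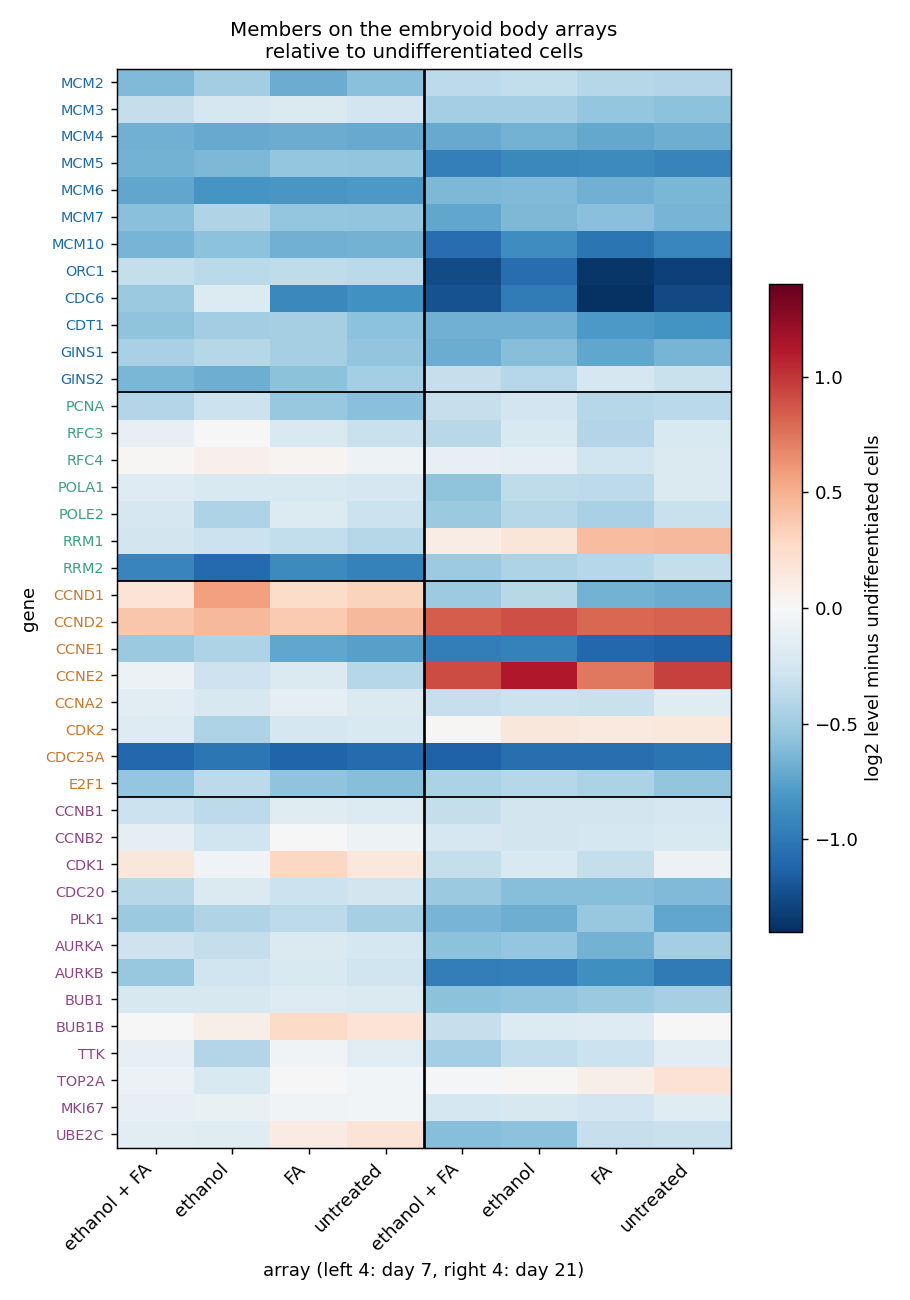
Log2 level of each of the 40 members on the 8 embryoid body arrays minus its level in undifferentiated cells. Rows are genes, grouped by role from top to bottom as origin and helicase (blue names), fork and nucleotide supply (green), G1 and S phase (orange) and mitotic (purple), and columns are arrays. The origin and helicase rows are below 0 on all 8 arrays, and CCND2 is above 0 on all 8.

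Of the 7 fork and nucleotide genes, RRM2 and PCNA fell by day 7. RRM2, the subunit that limits ribonucleotide reductase activity over the cell cycle, was at 10.42 in undifferentiated cells, at 9.50, 9.33, 9.53 and 9.48 at day 7 and at 9.91, 9.99, 10.02 and 10.09 at day 21. The day 7 arrays were the lowest and the day 21 arrays lay between them and the undifferentiated array. The effect was -0.92 ± 0.10 at day 7 (1.90-fold lower, adjusted p = 0.00402) and -0.38 ± 0.10 at day 21 (adjusted p = 0.0185). PCNA, the sliding clamp of the DNA polymerases, was at 10.56 in undifferentiated cells, at 10.15, 10.26, 10.03 and 9.97 at day 7 and at 10.23, 10.29, 10.15 and 10.18 at day 21. It fell at day 7 (-0.51 ± 0.09) and at day 21 (-0.40 ± 0.09). The clamp loader genes RFC3 and RFC4 were not called at day 7 or at day 21, with effects from -0.32 to -0.03, nor was POLA1, the catalytic subunit of the primase-coupled polymerase (-0.13 ± 0.12 and -0.30 ± 0.12). POLE2, a subunit of polymerase epsilon, fell by 0.39 ± 0.12 on the log2 scale at day 21 and was at -0.26 ± 0.12, uncalled, at day 7. Its day 21 call was lost without the untreated array of day 7 or either FA array.

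CDC25A, the phosphatase that activates CDK2 and CDK1, had the largest day 7 change of the 40 members. It was at 10.07 in undifferentiated cells, at 8.97, 9.06, 8.95 and 8.99 at day 7 and at 8.93, 9.01, 9.01 and 9.05 at day 21. The 8 embryoid body arrays spanned a narrow range about 1 log2 unit below the undifferentiated array, with effects of -1.04 ± 0.08 at day 7 (2.06-fold lower, adjusted p = 0.00223) and -1.03 ± 0.08 at day 21. E2F1, the activating factor of G1/S transcription, followed the same course at a smaller size. It was at 9.69 in undifferentiated cells, at 9.15, 9.32, 9.13 and 9.10 at day 7 and at 9.25, 9.29, 9.24 and 9.14 at day 21 (effects -0.56 ± 0.10 and -0.50 ± 0.10). CDK2, the kinase of cyclins E and A, was not called in either comparison with undifferentiated cells (-0.25 ± 0.12 at day 7 and 0.14 ± 0.12 at day 21), and CCNA2 was not either (-0.15 ± 0.09 and -0.25 ± 0.09).

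Of the mitotic genes, PLK1, a kinase of mitotic entry and spindle assembly, was at 11.90 in undifferentiated cells, at 11.38, 11.48, 11.53 and 11.44 at day 7 and at 11.24, 11.22, 11.37 and 11.16 at day 21. It fell by 0.45 ± 0.10 on the log2 scale at day 7 (adjusted p = 0.0207), a call that was lost without the untreated or the FA array of day 7. The other 12 mitotic genes were not called at day 7 and had effects from -0.28 (CDC20) to 0.26 (BUB1B). MKI67, the Ki-67 marker of proliferating cells, was at -0.04 ± 0.08 and TOP2A, the topoisomerase that untangles sister chromosomes, at -0.01 ± 0.10.

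The number of members called at day 7 rests on the untreated day 7 array, as it was 9 without it, all lower. Those 9 were 6 origin and helicase genes (MCM2, MCM4, MCM5, MCM6, MCM10 and GINS2) with RRM2, CCNE1 and CDC25A, all among the 18. Over all genes 548 were called without the untreated day 7 array, against 2520 with all arrays. The ORC1 call (-0.38 ± 0.11, adjusted p = 0.0411) was lost in 6 of 14 other settings, with no filter and without the untreated or FA array of either day or the day 21 array with ethanol and FA. Without the day 7 array with ethanol alone, the 11 origin and helicase calls were kept and 19 members were called in all. In that setting 3851 of all genes were called, so calls were more frequent among all genes as well. Of all called genes 32.5% were higher, and 17.9% once the arrays were centred on their medians, where 19 members fell and 1 rose.

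At day 21 all 12 origin and helicase genes and 6 of 13 mitotic genes were lower than in undifferentiated cells. Over the 40 members 25 fell and 2 rose, against 21.2% of all genes tested that fell and 16.6% that rose (37.8% called in all), and the median was -0.39 for the members and -0.06 for all genes. Without CCNE2, 25 fell and 1 rose. CDC6 had the largest decrease, at -1.30 ± 0.13 (2.47-fold lower, adjusted p = 0.000304), followed by ORC1, the largest subunit of the origin recognition complex, at -1.27 ± 0.11 (2.41-fold lower, adjusted p = 0.000119). MCM10 fell by 0.93 ± 0.09 and MCM5 by 0.89 ± 0.08 on the log2 scale. GINS2 was the smallest of the 12, at -0.27 ± 0.09, and its call (adjusted p = 0.0451) was lost in 6 of 14 other settings, namely with no filter and without the FA array of day 7 or any of the 4 arrays of day 21.

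The 6 mitotic genes that fell at day 21 were AURKB, PLK1, CDC20, AURKA, BUB1 and UBE2C. AURKB, the kinase of the chromosomal passenger complex, was at 10.78 in undifferentiated cells, at 10.25, 10.50, 10.56 and 10.50 at day 7 and at 9.81, 9.82, 9.91 and 9.79 at day 21, so that the day 21 arrays were the lowest with no overlap (effect -0.89 ± 0.12). CDC20 was at 11.89 in undifferentiated cells, at 11.51, 11.69, 11.59 and 11.64 at day 7 and at 11.37, 11.29, 11.30 and 11.28 at day 21 (effect -0.58 ± 0.10). PLK1 fell by 0.65 ± 0.10 on the log2 scale, AURKA, the centrosome kinase, by 0.52 ± 0.10, the spindle checkpoint kinase gene BUB1 by 0.49 ± 0.08 and UBE2C, the ubiquitin-conjugating enzyme of the anaphase-promoting complex, by 0.30 ± 0.08. The UBE2C call was lost without the untreated day 21 array or the day 7 array treated with FA. CCNB1, CCNB2, CDK1, BUB1B, TTK, TOP2A and MKI67 were not called, with effects from -0.25 to 0.14.

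**Figure D2:**
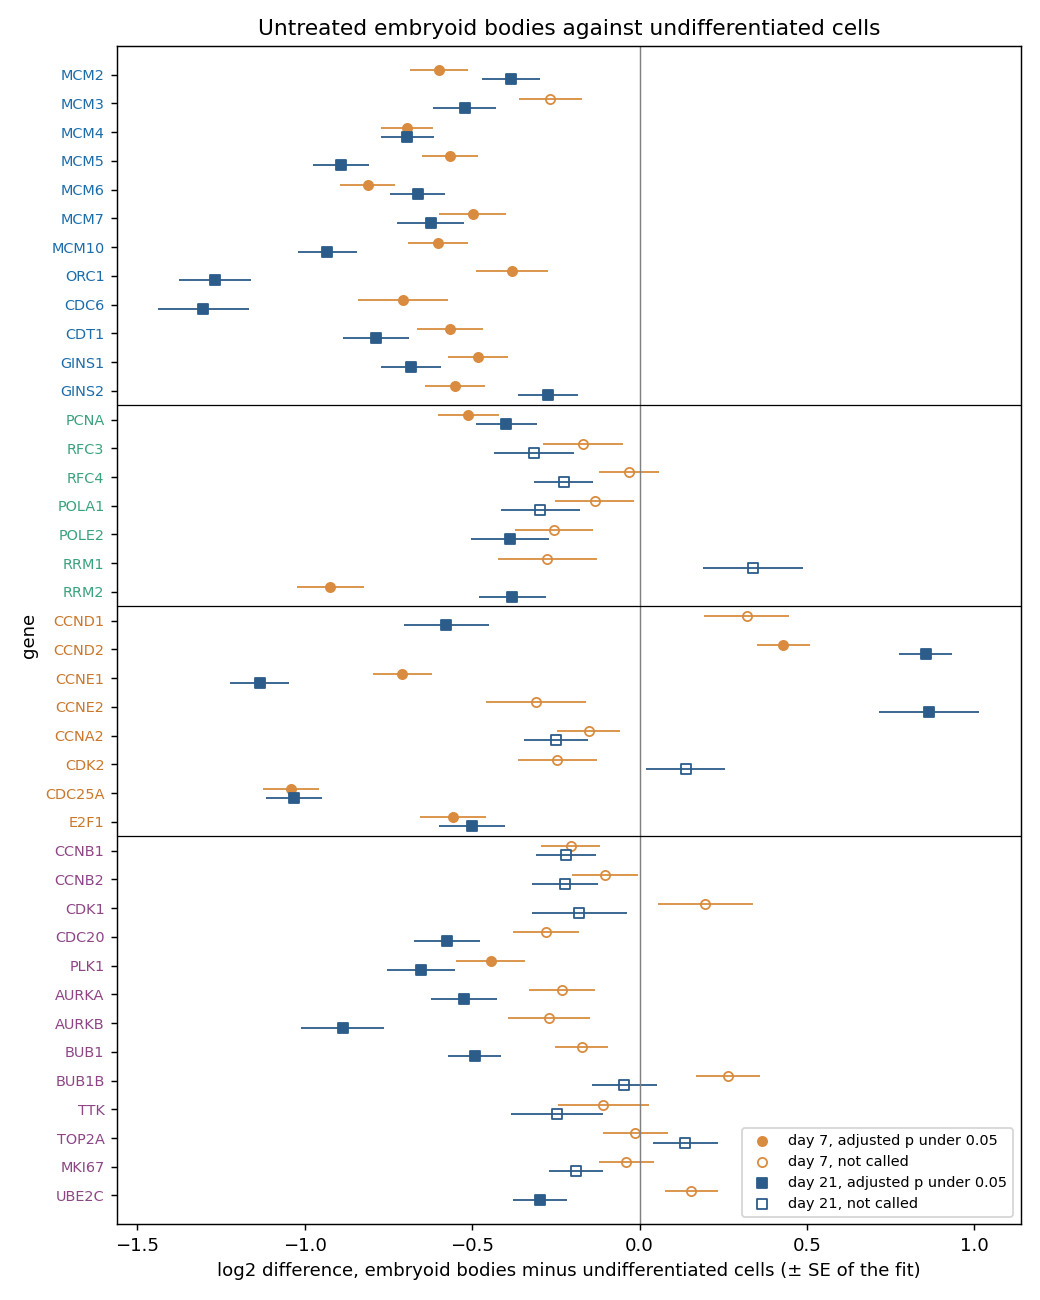
Log2 difference between untreated embryoid bodies and undifferentiated cells for each member, at day 7 (circles) and day 21 (squares), with the SE of the fit as bars and filled symbols for adjusted p under 0.05. Genes run down the page by role. Origin and helicase genes lie left of 0 at both days, and 12 of 13 mitotic genes have open symbols at day 7.

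From day 7 to day 21 the replication members moved in both directions, while every mitotic member that was called fell. Of the 12 origin and helicase genes 7 fell and 3 rose, and of the 7 fork and nucleotide genes 1 fell and 2 rose. The share of these replication genes that rose was near the 26.3% of all genes that rose. Of the 13 mitotic genes 9 fell and 0 rose. Of the 40 members 19 fell and 8 rose at day 21, against 22.6% of all genes that fell and 26.3% that rose (48.9% called in all). The members' median was -0.15 and that of all genes -0.01. Without CCNE2, 19 fell and 7 rose, and with arrays centred on their medians 16 fell and 10 rose, while the share of higher calls among all genes moved from 53.8% to 64.8%. The calls rest on the 4 pairs of arrays, and all 27 called members had the same sign in all 4. Since the effect is the mean of these same pairs, that agreement is not separate support for the calls.

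ORC1 and CDC6, which act first in licensing an origin, fell most among the origin and helicase genes. ORC1 was at 9.12, 9.30, 9.01 and 9.06 on the day 21 arrays, against 10.03, 9.99, 10.02 and 10.00 on the day 7 arrays, and at 10.37 in undifferentiated cells. The 2 days did not overlap and the effect was -0.89 ± 0.06 (1.85-fold lower, adjusted p = 1.51e-05). CDC6 was at 9.41, 9.64, 9.24 and 9.36 at day 21, against 10.10, 10.43, 9.72 and 9.78 at day 7, with an effect of -0.60 ± 0.08. Its 4 day 7 arrays were spread over 0.71 log2 units and the array with ethanol alone was the highest. MCM10 was at 9.11, 9.31, 9.16 and 9.27 at day 21, against 9.53, 9.61, 9.51 and 9.51 at day 7 (-0.33 ± 0.05). MCM3, MCM5, CDT1 and GINS1 fell as well, by 0.26, 0.32, 0.22 and 0.20 on the log2 scale. In contrast MCM2, MCM6 and GINS2 rose, by 0.22 ± 0.05, 0.15 ± 0.05 and 0.28 ± 0.05, and the call of MCM6 (adjusted p = 0.0316) was lost in 6 of 14 other settings, namely without the untreated or FA array of day 7 or any array of day 21. The CDT1 call was lost without the untreated day 21 array or the day 7 array treated with FA, and that of GINS1 without the FA array of day 7, without the ethanol and FA array of day 21, and with centred arrays. GINS2 was at 11.04, 10.96, 11.13 and 11.05 at day 21, against 10.72, 10.68, 10.78 and 10.88 at day 7, still below its 11.36 in undifferentiated cells.

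Both subunits of ribonucleotide reductase, which makes the deoxynucleotides for DNA synthesis, rose between the days. RRM1, the large subunit, was at 10.92, 10.98, 11.24 and 11.26 at day 21, against 10.56, 10.51, 10.46 and 10.41 at day 7, and at 10.81 in undifferentiated cells. The effect was 0.62 ± 0.09 (1.53-fold higher, adjusted p = 0.000665), and all day 21 arrays lay above all the others. RRM2 rose by 0.54 ± 0.06 (1.46-fold, adjusted p = 0.000152) and stayed below the undifferentiated level. RFC4 was at 11.53, 11.50, 11.37 and 11.44 at day 21, against 11.66, 11.71, 11.68 and 11.58 at day 7 (-0.20 ± 0.05), and its call was lost without either FA array and with centred arrays.

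The D cyclins CCND1 and CCND2 changed in opposite directions between the days. CCND1, a D cyclin, was at 9.43 in undifferentiated cells, at 9.62, 9.99, 9.69 and 9.74 at day 7 and at 8.92, 9.04, 8.77 and 8.73 at day 21. It was highest at day 7 and lowest at day 21, with -0.90 ± 0.07 between the days (1.86-fold lower at day 21, adjusted p = 3.81e-05) and an uncalled 0.32 ± 0.13 at day 7 relative to undifferentiated cells. CCND2, another D cyclin, was at 11.94 in undifferentiated cells, at 12.34, 12.39, 12.31 and 12.40 at day 7 and at 12.79, 12.84, 12.74 and 12.77 at day 21. It rose at each step, by 0.43 ± 0.08 to day 7 and by 0.42 ± 0.05 between the days, and with CCNE2 it was the member that rose relative to undifferentiated cells (0.85 ± 0.08 at day 21, 1.81-fold).

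CCNE1, the cyclin E that rises at the G1 to S boundary, was at 9.72 in undifferentiated cells, at 9.20, 9.30, 8.999 and 8.97 at day 7 and at 8.76, 8.78, 8.63 and 8.59 at day 21. It fell at each step, by 0.71 ± 0.09 to day 7 and by 0.43 ± 0.05 between the days, and was 2.20-fold lower at day 21 than in undifferentiated cells (adjusted p = 8.01e-05). Its relative CCNE2 was at 6.87 in undifferentiated cells, at 6.79, 6.58, 6.66 and 6.47 at day 7 and at 7.78, 7.99, 7.60 and 7.83 at day 21. The day 21 arrays stood above all others, by 1.18 ± 0.09 relative to day 7, although 1 of them and all arrays of the other stages lay under the dim-gene level. CDK2 rose between the days by 0.38 ± 0.07, and CDC25A and E2F1 were not called (0.01 ± 0.05 and 0.06 ± 0.06).

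**Figure D3:**
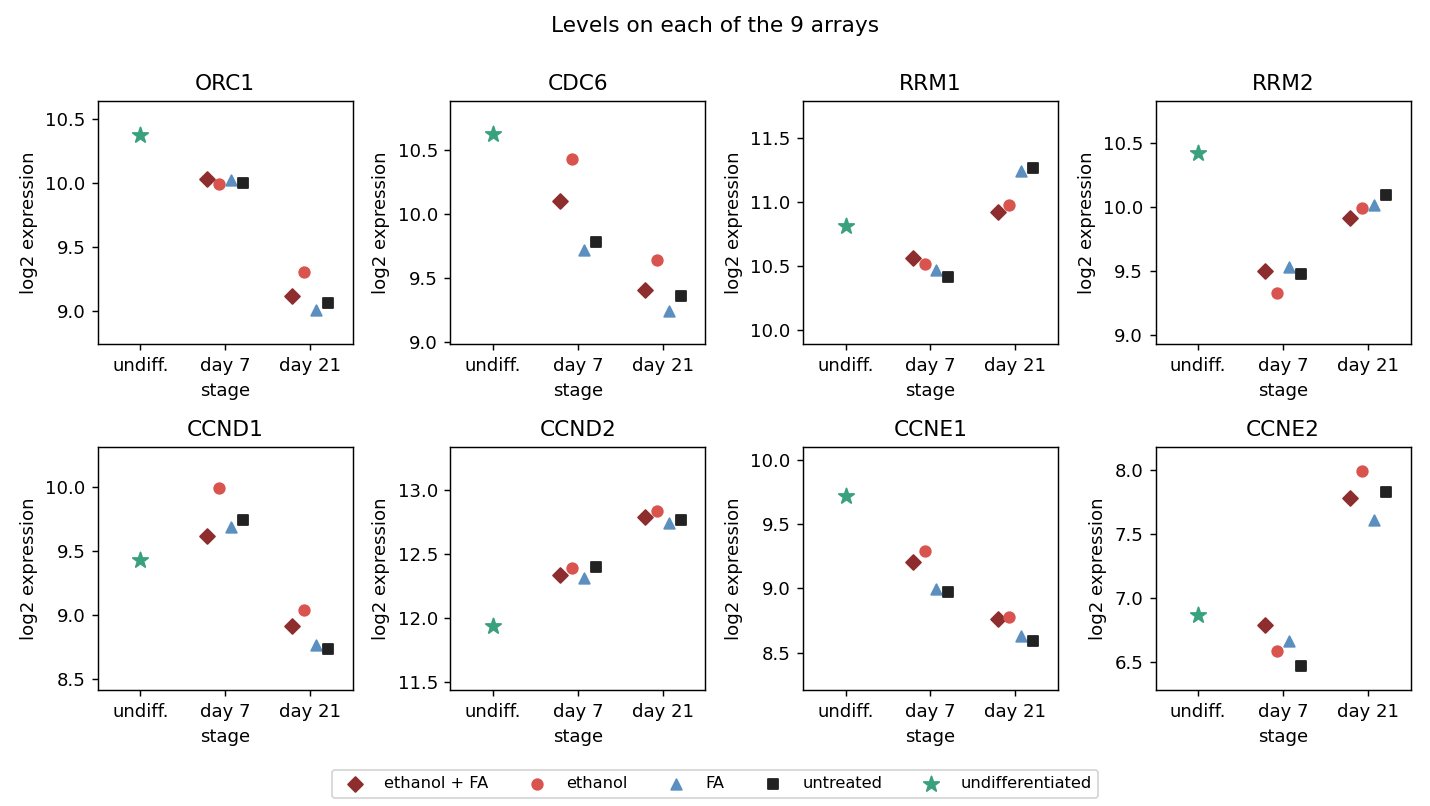
Log2 expression of 8 members on each of the 9 arrays, by stage, with a panel for each gene and a symbol for each treatment. Every panel spans the same number of log2 units on its own axis. ORC1 and CCNE1 step down at both stages, RRM2 is lowest at day 7, CCND2 steps up, and CDC6 at day 7 is highest with ethanol alone.

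Between the days 9 of 13 mitotic genes fell, from AURKB (-0.62 ± 0.07, 1.53-fold lower, adjusted p = 0.000226) to MKI67 (-0.15 ± 0.05, adjusted p = 0.0299), whose call was lost in 7 of 14 other settings, with centred arrays and without the untreated or FA array of day 7 or any array of day 21. The PLK1 call (-0.21 ± 0.06) was lost without either untreated array, the FA array of day 7 or the day 21 array with ethanol and FA. UBE2C was at 9.14, 9.17, 9.42 and 9.43 at day 21, against 9.60, 9.58, 9.86 and 9.93 at day 7 (-0.45 ± 0.05). CDK1, the kinase that drives mitosis, was at 9.72, 9.84, 9.72 and 9.98 at day 21, against 10.21, 10.01, 10.34 and 10.20 at day 7, and at 10.06 in undifferentiated cells (-0.38 ± 0.08). The 2 days did not overlap for either gene. CCNB1, CCNB2, TTK and TOP2A were not called.

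Other genes of the same processes were listed by role, with earlier results of these data known. Of 37 further replication genes tested, 15 fell and 0 rose at day 7 and 24 fell and 0 rose at day 21 relative to undifferentiated cells, and 15 fell and 6 rose between the days. As shares, 40.5% fell at day 7, 64.9% at day 21 and 40.5% between the days, against 13.9%, 21.2% and 22.6% of all genes tested. The 6 that rose between the days were 16.2%, against 26.3% of all genes. UHRF1, which brings DNA methylation to replicated DNA, had -0.96 ± 0.11 at day 7 and -0.58 ± 0.11 at day 21. It was among the 6 that rose between the days (0.39 ± 0.06). GINS4 had -1.13 ± 0.10 at day 21. WDHD1, which couples the helicase to polymerase alpha, fell most between the days (-1.10 ± 0.09), while the polymerase subunit genes POLD3 (0.50 ± 0.07) and POLE3 (0.44 ± 0.05) rose. Of 51 further mitotic genes, 11 fell at day 7 and 25 at day 21 with 0 that rose at either day, and 22 fell and 2 rose between the days. These are 21.6%, 49% and 43.1% lower, and the day 7 share is the nearest to that of all genes (13.9%). The 2 that rose between the days (3.92%) were SMC4 (0.31 ± 0.08) and MAD2L1 (0.28 ± 0.09). HMMR, a spindle-associated gene, had -0.72 ± 0.13 at day 7, -1.28 ± 0.13 at day 21 and -0.55 ± 0.07 between the days.

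Of 8 tested genes of CDK inhibitors and pocket proteins, which hold the cycle back, 1 rose at day 7 and 4 rose at day 21 relative to undifferentiated cells, with 0 that fell. Of all genes 6.68% rose at day 7 and 16.6% at day 21, and 1 of 8 at day 7 is too few to read against that share. CDKN2A was above the dim-gene level on 3 arrays, all of day 21, so it could be tested only because it was high there, and without it 3 of 7 rose at day 21 and 1 of 7 at day 7. CDKN1B, the p27 inhibitor of cyclin E and CDK2, was at 9.43 in undifferentiated cells, at 9.96, 9.69, 9.77 and 9.73 at day 7 and at 10.48, 10.60, 10.68 and 10.79 at day 21. The day 21 arrays lay above all others, with 1.22 ± 0.15 over undifferentiated cells (adjusted p = 0.000607). RB1, the retinoblastoma protein gene that restrains E2F, was at 10.12 in undifferentiated cells, at 10.01, 9.77, 9.75 and 9.77 at day 7 and at 10.75, 10.80, 10.86 and 11.04 at day 21 (0.75 ± 0.15). RBL2, which codes for the related p130, rose by 0.68 ± 0.15 at day 7 and 0.80 ± 0.15 at day 21. CDKN2A was at 7.19 in undifferentiated cells, at 7.46, 7.52, 7.20 and 7.38 at day 7 and at 7.90, 8.25, 7.83 and 7.56 at day 21. Between the days 3 of the 8 rose and 2 fell (CDKN3 and CDKN2D), and 2 of 7 rose without CDKN2A, against 26.3% of all genes that rose and 22.6% that fell. CDKN1A and CDKN2B were dim on every array and were not tested. Of 12 further G1 cyclin, CDK and E2F genes, 2 fell at day 7 (E2F3 and CCND3), and at day 21 4 fell and E2F5 rose (0.88 ± 0.16). The day 7 share of 16.7% is near the 13.9% of all genes that fell, and at day 21 33.3% fell, against 21.2% of all genes. Between the days 3 rose and 0 fell, which is 25% against 26.3% of all genes that rose. Those 3 were E2F5 (1.40 ± 0.09), TFDP1 (0.60 ± 0.09) and E2F6 (0.32 ± 0.05).

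For ethanol 1 member was called, UBE2C, which was lower in all 4 pairs. It was at 9.60 with ethanol and FA against 9.86 with FA, and at 9.58 with ethanol against 9.93 untreated, on the day 7 arrays. At day 21 it was at 9.14 with ethanol and FA against 9.42 with FA, and at 9.17 with ethanol against 9.43 untreated. The effect was -0.29 ± 0.05 (1.22-fold lower, adjusted p = 0.0425), against 0.122% of all genes that fell with ethanol and 0.563% that rose (0.685% called in all, 84 genes). The value stayed between -0.30 and -0.27 in 15 other settings, but its adjusted p ran from 0.0194 to 0.211 and the call was lost in 8 of them. It was kept without the day 7 array with ethanol alone (-0.27, adjusted p = 0.0354). It was lost without either of the untreated arrays, either of the FA arrays or either ethanol array of day 21 (adjusted p from 0.121 to 0.211), with no filter on dim genes (0.0619) and with arrays centred on their medians (0.0561).

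CDC6 was higher with ethanol in all 4 pairs but was not called. It was at 10.10 with ethanol and FA against 9.72 with FA, and at 10.43 with ethanol against 9.78 untreated, on the day 7 arrays. At day 21 it was at 9.41 with ethanol and FA against 9.24 with FA, and at 9.64 with ethanol against 9.36 untreated. The effect of 0.37 ± 0.08 had an adjusted p of 0.0881, and from 0.0615 to 0.309 in 15 other settings. Without the day 7 array with ethanol alone it was 0.30, with an adjusted p of 0.0681. CCNE1 (0.21 ± 0.05, adjusted p = 0.106) and PCNA (0.15 ± 0.05, adjusted p = 0.21) were also higher in all 4 pairs and not called.

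Of the 13 mitotic genes, 12 had a mean ethanol difference below 0, with a median of -0.09, whereas 41.0% of all genes were below 0, with a median of 0.02. In the single pairs 13 of 13 were below 0 at day 7 with FA, 10 of 13 at day 7 without FA, 9 of 13 at day 21 with FA and 10 of 13 at day 21 without FA. Of all genes 42.7%, 46.6%, 44.8% and 41.3% were below 0 in these pairs, in the same order. BUB1B had -0.18 ± 0.06 (adjusted p = 0.173), TTK -0.17 ± 0.08 and TOP2A -0.14 ± 0.06, each lower in 4 of 4 pairs. Of the 51 further mitotic genes 40 were below 0 and 0 were called. Of the 12 origin and helicase genes 9 were above 0, with a median of 0.03. Since UBE2C alone passed the test, these are counts of sign among genes that vary together and were not tested as a group.

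**Figure D4:**
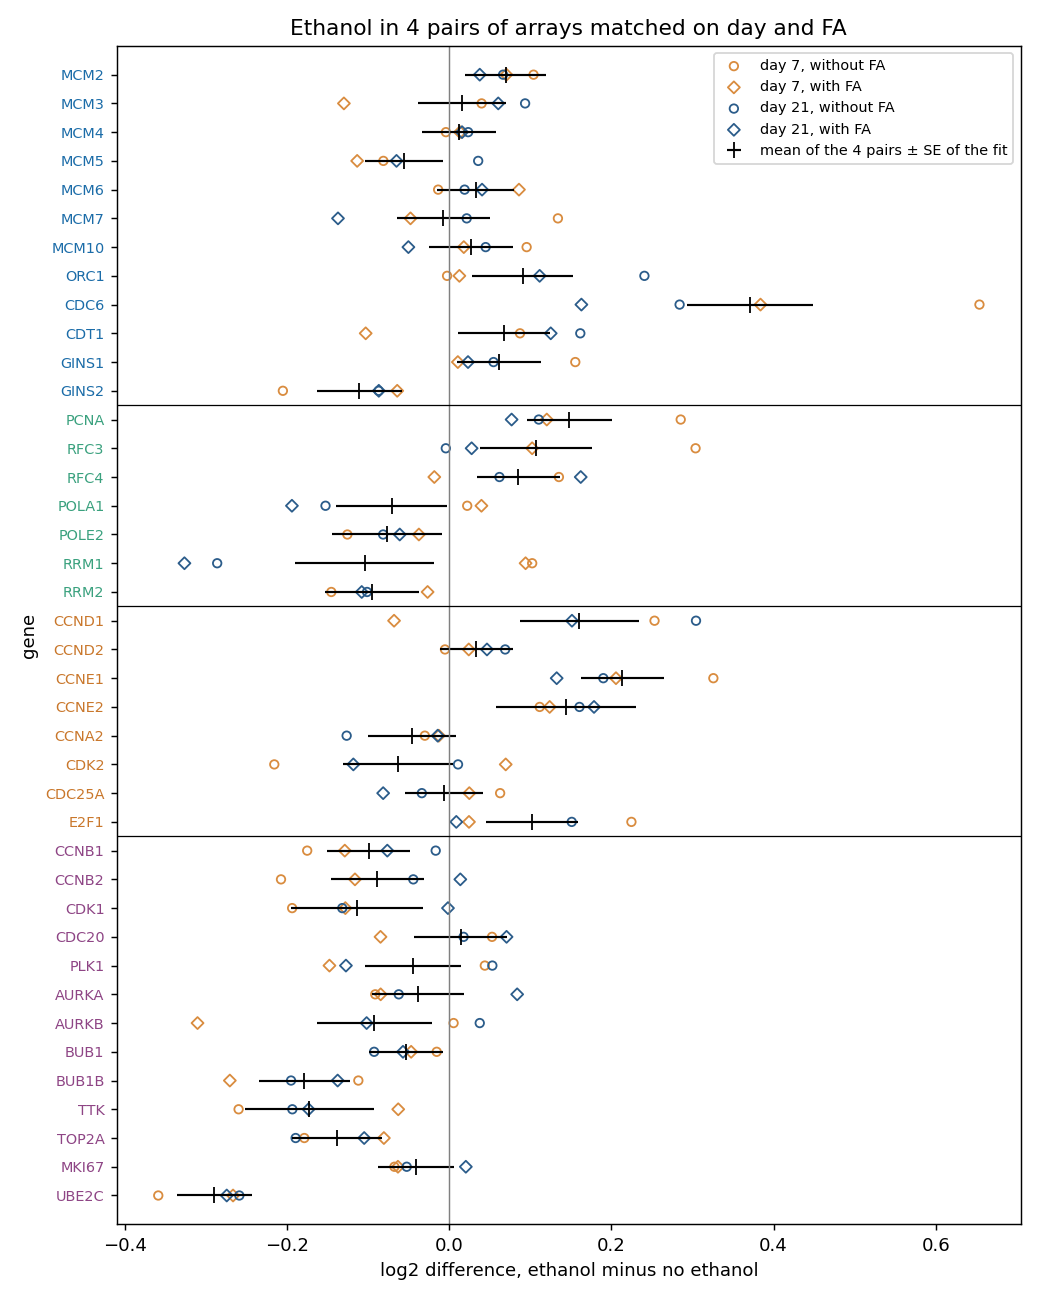
Log2 difference with ethanol minus without for each member. Open circles and diamonds are the 4 pairs of arrays matched on day and FA, and the black mark is their mean with the SE of the fit. All 4 pairs lie below 0 for UBE2C and above 0 for CDC6, whose day 7 pair without FA (0.65) is the farthest right.

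RRM1 showed an opposite sign of the ethanol difference on the 2 days. It was higher with ethanol by 0.10 without FA and by 0.09 with FA at day 7, and lower by 0.29 without FA and 0.33 with FA at day 21 (pair differences of -0.29 and -0.33). The interaction of ethanol and day was -0.40 ± 0.09, with a limma p of 0.00439 unadjusted and 0.352 adjusted over all genes. No member was called for this interaction in limma, where 1 of all genes (0.00816%) was called. At an unadjusted limma p under 0.05 there were 2 of the 40 members, against 917 of all genes (7.48%). By this count the members did not exceed the share of all genes.

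For FA, no member and no gene at all was called in limma. With 1 array for each condition, the lack of calls does not show that FA had no effect. At an unadjusted p under 0.05 there were 121 of the 12254 genes and 1 member, CDC6, which was lower with FA in 4 of 4 pairs (-0.19 ± 0.08, adjusted p = 1). The members' FA effects ran from -0.19 (CDC6) to 0.05. The percentage called was 0, also for the interactions of ethanol with FA and of FA with day. At an unadjusted limma p under 0.05, ethanol with FA had 0 members and 100 genes (0.816%). FA with day had 4 of the 40 members and 1496 of all genes (12.2%). By this count the members did not exceed the share of all genes. Those 4 members were CCNE2 (-0.41 ± 0.09), CDK1 (-0.36 ± 0.10), TTK (-0.34 ± 0.10) and POLE2 (-0.28 ± 0.09), each with an adjusted p of 0.403 for a difference of the FA effect between day 21 and day 7. CCNE2 lay under the dim-gene level on every day 7 array.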

How the data were processed

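Total RNA of 9 NCCIT samples was hybridised, 1 array a condition, as biotin-labelled cDNA per the labels' protocols. Per the submitters' processing notes, the deposited values come from RMA and Affymetrix Expression Console 1.3.1. RMA gives log2 values, quantile-normalized by design, and the range here (2.49 to 14.3) fits log2, which the labels do not state. RMA hides a change shared by most genes and compresses dim ones. A genome build is not stated in the labels.

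Of 33297 clusters, 19460 had 1 gene symbol, 1754 several and 12083 none here. With several clusters a gene was represented by the brightest. Genes whose highest value did not exceed 7.71 were removed, which left 12254 of 18417 genes and all 40 members. limma 3.58.1 (R 4.3.3) fitted the additive model (residual df 4, prior df 3.94) and, for each interaction, 1 added term (residual df 3). The residual stands in for replicate error and holds any true interaction. The number of arrays limits the precision. The fits were tested on simulated data. No 2 arrays held identical values.

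The members and lists were chosen with earlier results of these data known. Values on all arrays are given for up to 3 called members per role and comparison by size of effect, and other list genes by the same rule. A few further members (such as MCM2, GINS2 and CCND2) and list genes were named after their values were seen. Promoters of the other 9 members are not used here. Alternatives were no filter, a stricter filter, mean of clusters, centred arrays, a prior with trend, the mean of all 4 arrays of a day, no FA term, and each array left out. The undifferentiated array was kept in the comparisons with undifferentiated cells, which need it.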

Additional observations from a re-analysis of the deposited data

How the results depend on the processing

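Of the called member effects, none changed sign in any setting run. No fit with a replicate block was run, since each condition had 1 array and the labels give no replicate numbers. The 4 pairs behind the ethanol, FA and day effects are matched on the other conditions, within the additive model. In the comparisons with undifferentiated cells only the 8 embryoid body arrays could be left out, since the 1 undifferentiated array is needed for them. How far those results depend on that array was not tested. Leaving out each array in turn otherwise, the members called numbered 9 to 22 for day 7 and 24 to 30 for day 21 against undifferentiated cells, 21 to 31 between the days, 0 to 1 for ethanol and 0 to 0 for FA. Over all genes these ranges were 548 to 3851, 3376 to 5839, 4433 to 6978, 0 to 212 and 0 to 0. The lowest day 7 counts came without the untreated day 7 array, against 18 members and 2520 genes with all arrays. Without the FA array of day 7 it was 1286 genes, and 3851 without the array with ethanol alone of that day. For ethanol, 0 members passed with no filter and with centred arrays, against 1, and the genes called were 84 with all settings as reported, 54 with no filter, 155 with a trended prior and 215 without the FA term. Ethanol calls numbered 212 without the day 7 array with ethanol alone, 129 without the ethanol and FA array of day 7, 3 when the FA array of day 21 was left out and 2 when the untreated array of day 21 was. They numbered 0 without the untreated or FA array of day 7 or either ethanol array of day 21. The ethanol by day interaction called 0 genes with no filter, against 1. Causes were not tested. Leaving out CCNE2 from the members, and CDKN2A from its list, was chosen after seeing the data. The members' other counts stayed within 1.5 times.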
